A study of Homo sapiens with 12 samples.

Results

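The genes described here are 10 that mark the epicardium, the mesothelium or the developing kidney, or line epithelia: WT1, TBX18, ALDH1A2, TCF21, UPK3B, BNC1, NPHS1, LHX1, AQP3 and ITGB8. They were picked by symbol from 78894 genes, and all 10 were found once. Some were picked because their counts differed steeply between endothelin-1 and sacubitrilat libraries, so that difference is given below as a description with no test. Those libraries also enter every other comparison but combined against vehicle, so tests and counts of members there are not independent of the choice. RNA was counted at the 3′ ends of transcripts in 12 libraries of cardiomyocytes made from WTC-mEGFP-ACTN2-cl85, an established line of human induced pluripotent cells that is 1 clone with a green fluorescent tag on ACTN2. Cultures were enriched for cardiomyocytes with lactate and then treated for 48 h with 10 nM endothelin-1 plus 16 µM sacubitrilat (combined), with 10 nM endothelin-1, with 16 µM sacubitrilat, or with vehicle, in 3 independent cultures each. Endothelin-1 is a peptide that drives cardiomyocyte growth, and sacubitrilat inhibits neprilysin, a peptidase that breaks down natriuretic peptides and endothelin-1.

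The epicardium is the mesothelial sheet over the heart. During development some of its cells lose their epithelial form and give rise to fibroblasts and mural cells, under the transcription factors WT1, TBX18 and TCF21 and with retinoic acid made by ALDH1A2. The mesoderm that forms the kidney uses several of the same genes: WT1 is needed in nephron progenitors and podocytes, where it activates NPHS1, and LHX1 is needed to form the nephron. Neither tissue is part of a cardiomyocyte culture by design.

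Library depth differed with the group and limits every value below. The 3 combined libraries held 87281 to 158791 counts and the 3 vehicle libraries 80844 to 316932, against 1473744 to 1781653 with endothelin-1 and 1268308 to 1953122 with sacubitrilat. A single count was therefore worth 3.16 to 12.4 CPM, the count scaled to the library total, in the combined and vehicle libraries and 0.512 to 0.788 CPM in the others. The combined against vehicle and the endothelin-1 against sacubitrilat comparisons set libraries of similar depth side by side. In every other comparison depth and compound change together and cannot be told apart, and the interaction sets the 6 shallow libraries against the 6 deep ones. In the descriptions of both single-compound groups, a further line names the compound of the other group. Groups here follow the titles; were that line right, the endothelin-1 and sacubitrilat values below would trade names, while the combined against vehicle difference and the interaction would stay as they are. In bulk RNA, fewer cells of a type and less RNA per cell cannot be told apart.

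The label was checked against other markers. Troponin TNNT2 of cardiomyocytes stood at 1303 to 3743 CPM in the 12 libraries. WT1 was detected in every library, and a list of 16 other epicardial and mesothelial genes, led by the Wnt antagonist SFRP1, summed to 677 to 1618 CPM. A list of 20 other nephron and podocyte genes summed to 433 to 1134 CPM, led by SYNPO, which many cell types express. The nephron regulator PAX2 had 3 counts in the 12 libraries, all in 1 endothelin-1 library. Endothelial cadherin CDH5 had 1 count in the 12 libraries, in a sacubitrilat library.

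Promoters of 9 members were found in the RefSeq table (GRCh38.p14), where each stretch has 300 bases around a transcript start. The main WT1 promoter, that of TBX18 and that of NPHS1, a known WT1 target, are shown because these genes had 3 different orders of the groups. Capitals mark CAGCTG, an E-box of the kind TCF21 binds, and GCGGGGGCG on either strand, a GC-rich motif of the kind WT1 and EGR factors bind. They lie on the minus strand at chr11:32435490-32435789, chr6:84764549-84764848 and chr19:35852455-35852754.

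WT1: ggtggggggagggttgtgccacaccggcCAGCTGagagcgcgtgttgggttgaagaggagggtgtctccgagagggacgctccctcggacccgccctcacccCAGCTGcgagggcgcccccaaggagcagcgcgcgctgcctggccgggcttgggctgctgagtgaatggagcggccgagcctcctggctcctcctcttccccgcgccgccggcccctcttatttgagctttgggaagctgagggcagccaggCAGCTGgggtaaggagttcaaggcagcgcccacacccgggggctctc

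TBX18: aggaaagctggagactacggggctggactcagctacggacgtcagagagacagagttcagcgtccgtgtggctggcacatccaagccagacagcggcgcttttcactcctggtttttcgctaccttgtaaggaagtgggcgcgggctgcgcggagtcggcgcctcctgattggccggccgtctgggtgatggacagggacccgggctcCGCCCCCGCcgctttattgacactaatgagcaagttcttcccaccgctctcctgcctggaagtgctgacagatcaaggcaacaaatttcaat

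NPHS1: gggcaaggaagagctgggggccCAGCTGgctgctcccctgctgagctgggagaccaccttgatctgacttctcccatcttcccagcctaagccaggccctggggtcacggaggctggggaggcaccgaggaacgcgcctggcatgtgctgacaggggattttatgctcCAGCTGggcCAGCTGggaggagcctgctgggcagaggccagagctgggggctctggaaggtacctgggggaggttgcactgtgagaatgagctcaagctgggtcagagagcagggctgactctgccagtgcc

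The E-box had 3 matches in the WT1 promoter, 3 in that of NPHS1 and none in that of TBX18, which held 1 match to the WT1 and EGR type motif. The E-box occurred in 17.9% of the 35116 promoters of the table and in 4 of the 14 member promoters, which belong to WT1, NPHS1 and BNC1. The WT1 and EGR type motif occurred in 5.07% of all promoters and in 3 of the 14, those of TBX18, BNC1 and AQP3. The GC box GGGCGG, which can overlap it, occurred in 45% of all promoters and in 9 of the 14. These 9 belong to 8 of the 9 members, all but NPHS1. All motifs were searched on both strands, and a match describes the letters only.

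**Figure D1:**
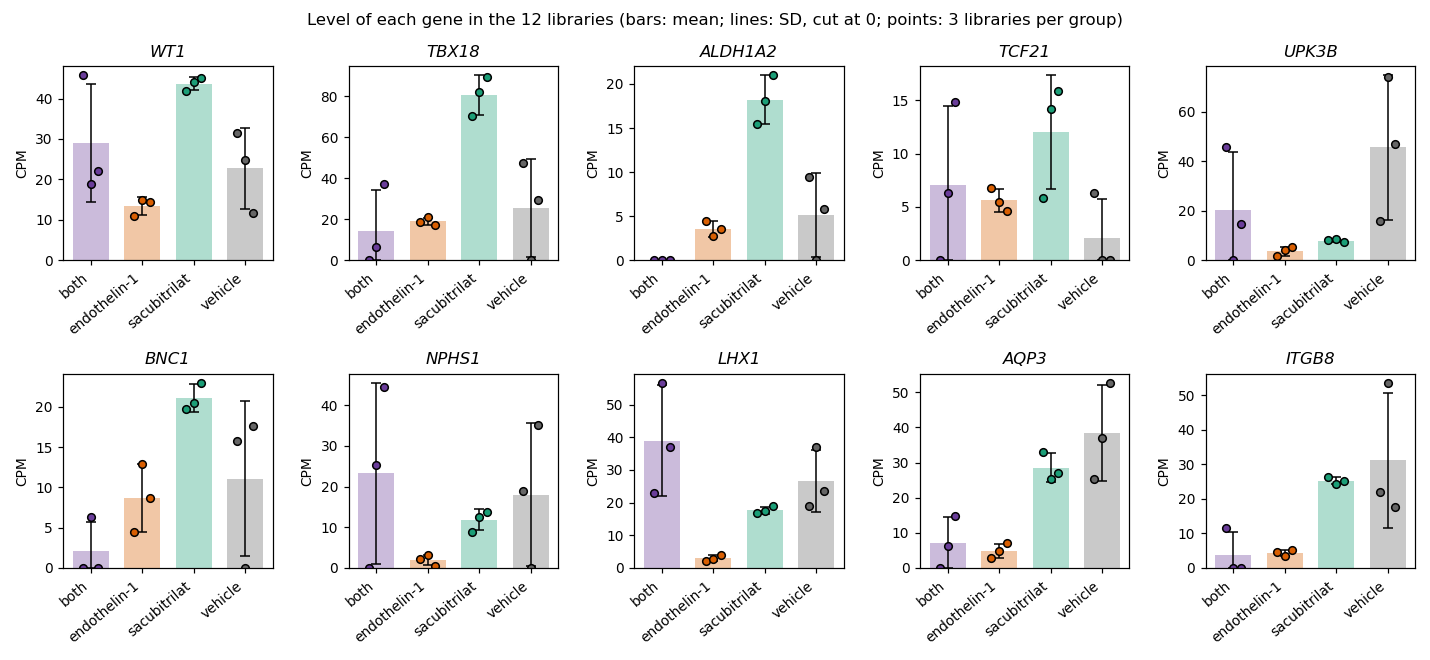
Level of each gene (CPM, y axis) in combined, endothelin-1, sacubitrilat and vehicle libraries. Points are the 3 libraries of a group, bars their mean and lines the SD, cut at 0; sacubitrilat libraries lie close together for most genes, while combined and vehicle libraries, where 1 count is worth 3.16 to 12.4 CPM, scatter widely.

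WT1, the zinc-finger factor at the head of the epicardial programme (chr11:32387775-32435539, minus strand), had 45.8, 18.9 and 22.2 CPM in the combined libraries, 10.9, 14.9 and 14.5 CPM with endothelin-1, 41.9, 44.2 and 45.1 CPM with sacubitrilat, and 31.6, 24.7 and 11.7 CPM with vehicle. The endothelin-1 and sacubitrilat libraries stood apart without overlap, and every vehicle library was below every sacubitrilat library. Of the vehicle libraries, only replicate 3, with 2 counts, lay within the endothelin-1 range. Against vehicle, WT1 differed by 0.09 ± 0.59 on the log2 scale (SE) in the combined libraries, by -0.83 ± 0.45 with endothelin-1 and by 0.74 ± 0.37 with sacubitrilat, and no adjusted p passed 0.05 (0.979, 0.181 and 0.153; edgeR's quasi-likelihood test). The combined libraries rest on 10 counts and the vehicle libraries on 14. Without vehicle replicate 1 the sacubitrilat difference was 1.66 with an adjusted p of 0.0465. Antisense transcript WT1-AS overlaps the gene on the other strand and had 52.66 counts in all.

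TBX18, a T-box factor of the epicardium (chr6:84732496-84764598, minus strand), had 0, 6.3 and 37.1 CPM in the combined libraries, 18.5, 21 and 17.4 CPM with endothelin-1, 70.5, 82 and 89.6 CPM with sacubitrilat, and 47.3, 0 and 29.3 CPM with vehicle. Every sacubitrilat library was above every library of the other groups. TBX18 rose with sacubitrilat against vehicle by 1.13 ± 0.35 on the log2 scale (adjusted p = 0.0206, edgeR). That call ended without vehicle replicate 2 (log2 difference 0.88, adjusted p = 0.0666), without vehicle replicate 3 (1.09, 0.0737), without sacubitrilat replicate 3 (0.97, 0.065) and without the 2 libraries under 100000 counts (0.85, 0.0579). It was also lower in combined than in sacubitrilat libraries, with a log2 difference of -2.28 ± 0.53 (adjusted p = 0.001, edgeR), and this call held in every alternative that could be run. The endothelin-1 difference from vehicle, -0.86 ± 0.45, had an adjusted p of 0.169 (edgeR), and 0.0416 without the 2 libraries under 100000 counts.

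TCF21, a helix-loop-helix factor that directs epicardial cells towards fibroblasts, had 0, 6.3 and 14.8 CPM in the combined libraries, 6.74, 5.43 and 4.65 CPM with endothelin-1, 5.88, 14.2 and 15.9 CPM with sacubitrilat, and 6.31, 0 and 0 CPM with vehicle. Its groups overlapped in every pairing, endothelin-1 and sacubitrilat included. With 3 counts in the combined libraries and 2 in the vehicle libraries, the ratio of their summed levels was 2.24 with a 95% counting interval of 0.256 to 26.8. No comparison with vehicle or with the combined group passed the test for TCF21.

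BNC1, basonuclin, a zinc-finger protein of mesothelium and stratified epithelium, had 0, 6.3 and 0 CPM in the combined libraries, 4.49, 12.9 and 8.72 CPM with endothelin-1, 19.8, 20.5 and 23 CPM with sacubitrilat, and 15.8, 0 and 17.6 CPM with vehicle. The combined group holds 1 count against 98 with sacubitrilat, a ratio of 0.123 with a 95% counting interval of 0.00308 to 0.7. BNC1 fell in combined against sacubitrilat libraries (adjusted p = 0.0291, edgeR), and the call ended without combined replicate 1 (0.0765), without combined replicate 3 (0.1), without the 2 libraries under 100000 counts (0.0691) and with DESeq2 (0.0625).

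ALDH1A2, which makes retinoic acid in the epicardium, had 0 counts in all 3 combined libraries. It stood at 4.49, 2.71 and 3.49 CPM with endothelin-1, at 15.4, 18.1 and 21 CPM with sacubitrilat, and at 9.47, 0 and 5.86 CPM with vehicle. Its summed level with sacubitrilat was 2.36-fold a floor of 3 counts over the combined group, or 7.87 CPM. The ratio of combined to sacubitrilat libraries had a 95% counting interval of 0 to 0.533, and the difference was called (adjusted p = 0.00589, edgeR). The absence of ALDH1A2 from the combined libraries was not detectable as a difference from vehicle, which held 4 counts, nor from endothelin-1, whose level lies under that floor.

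UPK3B, a uroplakin of mesothelium and urothelium, had 45.8, 0 and 14.8 CPM in the combined libraries, 1.68, 4.07 and 5.23 CPM with endothelin-1, 8.08, 8.67 and 7.17 CPM with sacubitrilat, and 15.8, 74.2 and 46.9 CPM with vehicle. Every vehicle library was above every endothelin-1 and sacubitrilat library. UPK3B fell by 3.14 ± 0.58 on the log2 scale with endothelin-1 against vehicle (adjusted p = 0.000107, edgeR). With sacubitrilat it fell by 2.16 ± 0.52 (adjusted p = 0.0028, edgeR). It was the one member of the 10 called lower with sacubitrilat. The UPK3B-like genes UPK3BL1 and UPK3BL2 had 6.75 and 6 counts in the combined group and 50.44 and 35.75 with endothelin-1. They had 53.5 and 32.67 counts with sacubitrilat and 6.67 and 9.25 with vehicle. Counts of UPK3B itself were whole numbers in every library, while those of UPK3BL1 and UPK3BL2 often were not. Sharing of reads among the 3 genes was not tested.

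NPHS1, nephrin, the adhesion protein of the podocyte slit diaphragm (chr19:35825372-35852504, minus strand), had 0, 25.2 and 44.5 CPM in the combined libraries, 2.25, 3.05 and 0.582 CPM with endothelin-1, 8.81, 12.6 and 13.8 CPM with sacubitrilat, and 18.9, 0 and 35.2 CPM with vehicle. The endothelin-1 libraries were low together, while 1 combined and 1 vehicle library had no count. With endothelin-1 against vehicle NPHS1 fell by 3.42 ± 0.75 on the log2 scale (adjusted p = 0.000767, edgeR). It rose in combined against endothelin-1 libraries by 3.72 ± 0.81 (adjusted p = 0.000486, edgeR), a call that ended without combined replicate 3 (2.87, adjusted p = 0.0518). APLP1 and KIRREL2 overlap NPHS1 on the other strand and had 2055 and 28 counts in all.

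LHX1, a homeodomain factor of the early nephron, had 22.9, 56.7 and 37.1 CPM in the combined libraries, 2.25, 2.71 and 4.07 CPM with endothelin-1, 16.9, 17.3 and 18.9 CPM with sacubitrilat, and 18.9, 37.1 and 23.4 CPM with vehicle. It was above 0 in every library, and every endothelin-1 library was below every library of the other groups. LHX1 fell by 2.84 ± 0.57 on the log2 scale with endothelin-1 against vehicle (adjusted p = 0.000317, edgeR) and rose in combined against endothelin-1 libraries by 3.70 ± 0.55 (adjusted p = 1.8e-06, edgeR). Both calls held in every alternative that could be run. A rise in combined against sacubitrilat libraries, 1.31 ± 0.43 (adjusted p = 0.0159, edgeR), ended without combined replicate 2 (0.68, adjusted p = 0.414), without combined replicate 3 (1.23, 0.0743) and with no filter (0.82, 0.271).

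AQP3, an aquaporin of epithelial basolateral membranes, had 0, 6.3 and 14.8 CPM in the combined libraries, 2.81, 4.75 and 6.98 CPM with endothelin-1, 33.1, 25.2 and 27.1 CPM with sacubitrilat, and 25.2, 37.1 and 52.7 CPM with vehicle. Both groups given endothelin-1 lay below both groups without it, with no overlap. Against vehicle, AQP3 with endothelin-1 fell by 2.80 ± 0.49 on the log2 scale (adjusted p = 4.03e-05, edgeR). In combined against vehicle libraries the log2 difference was -2.15 ± 0.77, which had an unadjusted p of 0.00814 and an adjusted p of 0.245 in edgeR's test. Against sacubitrilat alone the combined libraries were lower by -1.75 ± 0.70 on the log2 scale (adjusted p = 0.0471, edgeR). With the replicate number as a block this became -1.73 with an adjusted p of 0.0642, and the call ended in 12 of 18 alternatives, among them leaving out any 1 endothelin-1 or sacubitrilat library or combined replicate 1 or 2.

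ITGB8, an integrin beta chain that activates latent TGF-beta, had 11.5, 0 and 0 CPM in the combined libraries, 4.49, 3.39 and 5.23 CPM with endothelin-1, 26.4, 24.4 and 25.1 CPM with sacubitrilat, and 22.1, 53.6 and 17.6 CPM with vehicle. As with AQP3, every library given endothelin-1 was below every library without it. With endothelin-1, ITGB8 fell by 2.41 ± 0.53 on the log2 scale against vehicle (adjusted p = 0.000845, edgeR). The combined group holds 1 count, and its ratio to sacubitrilat was 0.104 with a 95% counting interval of 0.0026 to 0.589 (adjusted p = 0.00769, edgeR). That call ended without combined replicate 2, with an adjusted p of 0.0562. The ratio of the combined group to vehicle was also 0.104, with an interval of 0.00247 to 0.682, an unadjusted p of 0.0044 and an adjusted p of 0.206 (edgeR).

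The members were then counted by comparison, beside the share of the 11203 genes tested that were called the same way. With endothelin-1 against vehicle, 5 of 10 members were called lower, where 12.2% of all genes were, and 0 were called higher, where 11% were. The 5 were UPK3B, NPHS1, LHX1, AQP3 and ITGB8, while WT1, TBX18, ALDH1A2, TCF21 and BNC1 did not pass. Since the endothelin-1 libraries also entered the choice of some members, nothing is read from this count. The median log2 difference was -1.66 over the 10 members and 0.10 over all genes tested. In the endoderm and epithelium list, 6 of 8 tested genes were called lower and 0 higher in the same comparison, with a median of -2.36, EPCAM at -2.99 ± 0.34 (adjusted p = 2.19e-08, edgeR) among them. With sacubitrilat against vehicle, 1 member was called higher (TBX18), where 8.68% of genes were, and 1 lower (UPK3B), where 11.2% were. Those shares lie near the background, and the median was 0.23 over the members and 0.14 over all genes. Of the endoderm and epithelium list, 4 genes were called lower and 1 higher with sacubitrilat, with a median of -2.22. The part of epithelial cells in the members' differences from vehicle was not tested.

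**Figure D2:**
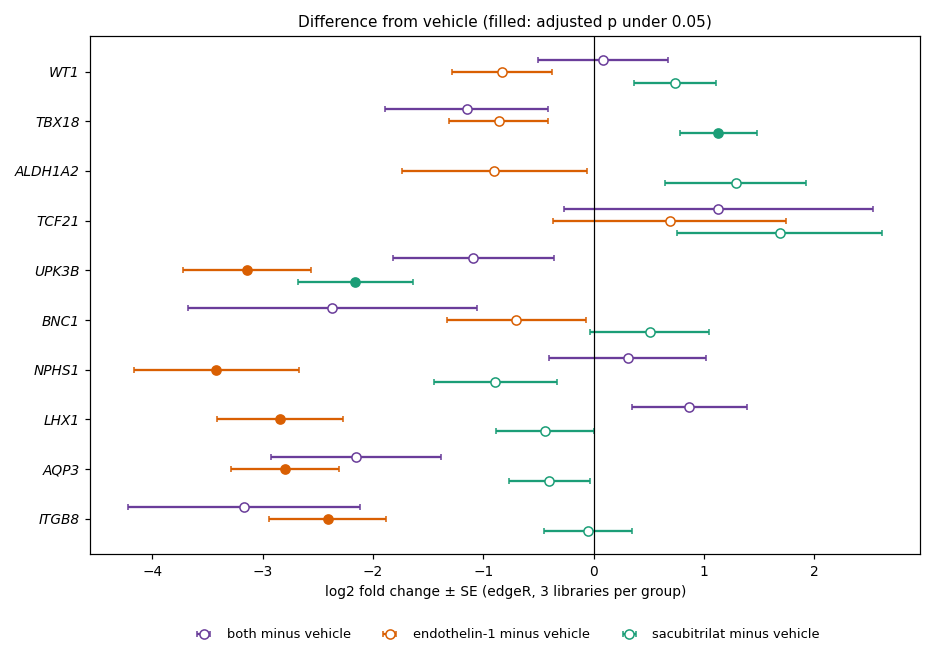
Log2 fold change from vehicle (x axis, point and SE from edgeR, 3 libraries per group) of each gene in combined, endothelin-1 and sacubitrilat libraries. Filled points have an adjusted p under 0.05; ALDH1A2 has no combined point because its combined libraries held 0 counts, and the 5 filled endothelin-1 points lie between -3.42 and -2.41.

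Combined against vehicle libraries gave 0 of 10 members called in either direction by edgeR, where 0.0803% of all genes were called higher and 0.0982% lower. AQP3 and ITGB8 had an unadjusted p under 0.05 (edgeR). The share of all genes under that value was not counted, so nothing is read from it. DESeq2 gave no adjusted p for any member. The summed level of the 10 members was 126, 126 and 185 CPM in the combined libraries and 211, 227 and 240 CPM in the vehicle libraries. These sums rest on 11 to 25 counts per combined library and 18.33 to 67 per vehicle library. Members with at least 1 count numbered 4, 7 and 7 in the combined libraries and 10, 5 and 9 in the vehicle libraries, while all 10 were detected in each of the 6 deeper libraries.

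In combined against endothelin-1 libraries, which is one of the primary comparisons of the series, 2 of 10 members were called higher (NPHS1 and LHX1), where 16.6% of all genes were, and 0 lower, where 17.8% were. In combined against sacubitrilat libraries 1 member was called higher (LHX1), where 17.2% of genes were, and 5 lower (TBX18, ALDH1A2, BNC1, AQP3 and ITGB8), where 17.8% were. Counts called higher in these comparisons and in the interaction below lie near the background. Single-compound libraries also entered the choice of some members, so nothing is read from any of these counts. The test of whether endothelin-1 made the same difference with and without sacubitrilat, the interaction, called 3 members higher and 0 lower, where 20.1% of genes were called higher and 26% lower. These were LHX1 (4.14 ± 0.71 on the log2 scale, adjusted p = 1.17e-05), NPHS1 (4.62 ± 0.99, adjusted p = 0.00023) and UPK3B (4.21 ± 1.09, adjusted p = 0.0018; edgeR for all). For NPHS1 and LHX1 the fitted difference made by endothelin-1 had opposite signs: 1.20 and 1.31 when it was added to sacubitrilat, and -3.42 and -2.84 when it was added to vehicle. The 1.20 of NPHS1 was not called (adjusted p = 0.131, edgeR), and the call of 1.31 for LHX1 ended in 3 alternatives. A turn of sign is therefore not shown for either gene. UPK3B's call ended without combined replicate 1, which holds 45.8 CPM of it (2.91, adjusted p = 0.127). AQP3 and ITGB8 were called lower with endothelin-1 on both backgrounds in the main fit, though both calls against sacubitrilat ended in alternatives given above. The interaction of AQP3 and ITGB8 had adjusted p of 0.415 and 0.691 (edgeR), which does not show that the 2 differences are alike.

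**Figure D3:**
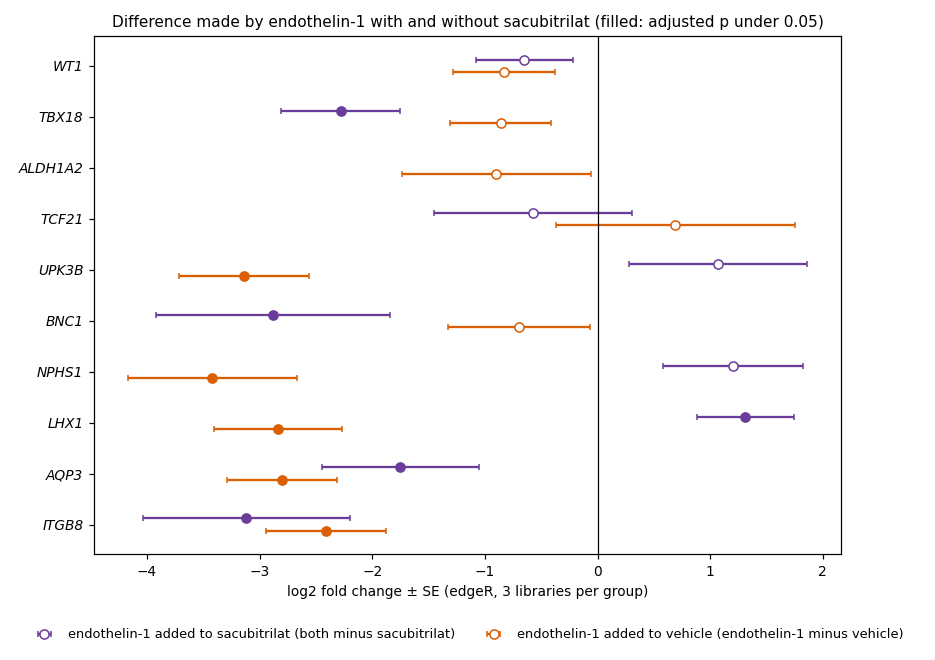
Log2 fold change made by endothelin-1 (x axis, point and SE from edgeR, 3 libraries per group) when added to sacubitrilat and when added to vehicle. Filled points have an adjusted p under 0.05. LHX1, NPHS1, UPK3B and, in the reverse direction, TCF21 lie on opposite sides of 0. WT1, TBX18, BNC1, AQP3 and ITGB8 lie below 0 in both. ALDH1A2 has no point for the combined libraries, which held 0 counts.

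Most tested genes of the endoderm and epithelium list were called higher in the interaction, as LHX1, NPHS1 and UPK3B were. Of 10 tested genes in the list of other epicardial and mesothelial genes, 5 were called higher and 2 lower. Epithelial adhesion protein EPCAM had 115, 126 and 119 CPM in the combined libraries, 11.2, 14.9 and 7.56 CPM with endothelin-1, 8.08, 7.88 and 10.8 CPM with sacubitrilat, and 48.9, 198 and 111 CPM with vehicle. On the log2 scale EPCAM fell by 3.37 ± 0.36 with sacubitrilat against vehicle (adjusted p = 6.39e-09, edgeR), where UPK3B also fell. LHX1 and NPHS1 were not called in that comparison, at -0.44 and -0.89 (adjusted p = 0.509 and 0.269, edgeR). Over the endoderm and epithelium list, 6 of 8 tested genes were called higher and 1 lower in the interaction, with a median of 4.56 against -0.43 over all genes tested. The summed level of the list's 9 genes, 74% to 77.5% of it KRT8, was 3458 to 8193 CPM in combined, 6452 to 6736 with endothelin-1, 8096 to 8323 with sacubitrilat and 4567 to 7053 with vehicle libraries. The part of epithelial cells, and of depth, in the results for LHX1, NPHS1 and UPK3B was not tested.

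Endothelin-1 against sacubitrilat is the comparison by which some members were picked, and it is the one in which the libraries are deep. All 10 members were lower with endothelin-1 in the fit, and 9 were lower by at least 2-fold, where 1.48% of all genes were; nothing is read from this count. The members just inside and just outside 2-fold were TCF21, 2-fold lower, and UPK3B, at -0.97 on the log2 scale. NPHS1 (-2.52), AQP3 (-2.41), LHX1 (-2.40), ITGB8 (-2.36) and ALDH1A2 (-2.20) had the steepest differences, ahead of TBX18 (-1.98), WT1 (-1.57) and BNC1 (-1.21). Libraries of the 2 groups did not overlap for 9 of 10 members, all but TCF21, where 22.9% of 14643 genes with at least 30 counts were lower without overlap. Summed over the 10 members, the level was 58.7, 75 and 71 CPM with endothelin-1 and 247, 267 and 287 CPM with sacubitrilat.

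The order of the group means was not the same for every gene. WT1, TBX18, ALDH1A2, TCF21 and BNC1 were highest with sacubitrilat, at 43.7 ± 1.65, 80.7 ± 9.61, 18.2 ± 2.78, 12 ± 5.35 and 21.1 ± 1.69 CPM (SD, n = 3). UPK3B, AQP3 and ITGB8 were highest with vehicle, at 45.6 ± 29.2, 38.4 ± 13.8 and 31.1 ± 19.6 CPM (SD, n = 3). NPHS1 and LHX1 were highest in the combined libraries, at 23.2 ± 22.3 and 38.9 ± 17 CPM (SD, n = 3). Endothelin-1 gave the lowest mean of WT1, UPK3B, NPHS1, LHX1 and AQP3. For AQP3 and ITGB8 the neighbouring means of combined and endothelin-1, 7.04 and 4.84 CPM for AQP3 and 3.82 and 4.37 CPM for ITGB8, differed by less than the larger SD of the pair. So did those of sacubitrilat and vehicle. The larger SD was that of the combined or vehicle libraries. For NPHS1 the combined and vehicle means, 23.2 and 18 CPM, likewise lay within their spread.

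Over the 6 deep libraries, the genes whose centred log2 profile lay nearest to that of WT1 among 11786 genes with a mean of at least 5 CPM were NHERF1, TNC and RAB37, at distances of 0.206, 0.281 and 0.291. NHERF1, a scaffold protein of apical membranes, had 31.4, 45.5 and 37.2 CPM with endothelin-1 and 112, 111 and 124 CPM with sacubitrilat. TNC, the matrix protein tenascin C, had 79.4, 83.5 and 91.9 CPM with endothelin-1 and 231, 255 and 275 CPM with sacubitrilat. Of the members, TBX18 ranked 35 and TCF21, the farthest, 1052. Some members were picked for their difference between these same libraries, so nothing is read from the ranks of members.

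Other epicardial and mesothelial genes, a list of 16 of which 10 were tested, gave a mixed picture. With endothelin-1 against vehicle 5 fell and 0 rose, with a list median of -0.77 against 0.10 over all genes; complement C3 fell by 2.72 ± 0.44 on the log2 scale, keratin KRT7 by 2.65 ± 0.49 and the Wnt antagonist SFRP5 by 0.95 ± 0.21 (adjusted p = 1.2e-05, 0.000105 and 0.000698, edgeR). With sacubitrilat against vehicle 2 rose, SFRP1 among them at 0.94 ± 0.26 (adjusted p = 0.00743, edgeR), and 2 fell, KRT7 and C3. The vehicle libraries held 44.2, 322 and 5.86 CPM of KRT7 and 63.1, 161 and 11.7 CPM of C3. The falls of these genes therefore rest on vehicle replicates 1 and 2, replicate 3 holding 1 count of KRT7 and 2 of C3. Combined against vehicle libraries had 0 calls in this list. Combined against endothelin-1 libraries had 3 genes higher and 1 lower, and combined against sacubitrilat 1 higher and 2 lower. The interaction called 5 genes of this list higher and 2 lower, with a median of 1.13 against -0.43 over all genes tested. In endothelin-1 against sacubitrilat libraries 3 fell and 0 rose, with SFRP5 at -1.33 ± 0.13 and intelectin ITLN1 at -1.70 ± 0.41 (adjusted p = 7.95e-10 and 0.00394, edgeR). The list's summed level was 677 to 768 CPM in combined, 954 to 1021 with endothelin-1, 1500 to 1618 with sacubitrilat and 1155 to 1348 with vehicle libraries, and SFRP1 made up 35.4% to 67.8% of it.

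**Figure D4:**
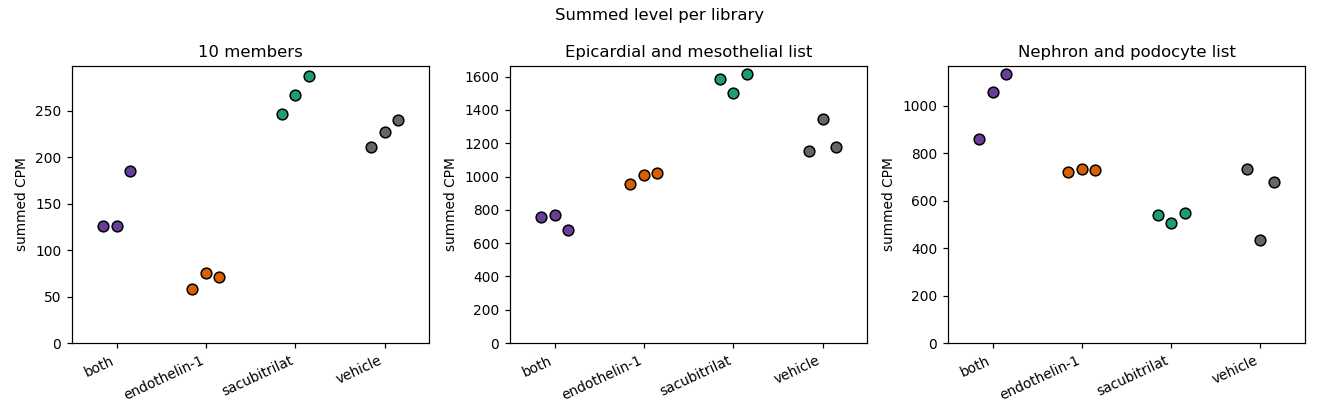
Summed CPM (y axis) of the 10 members, of 16 other epicardial and mesothelial genes and of 20 other nephron and podocyte genes in each library; each point is 1 library of the combined, endothelin-1, sacubitrilat or vehicle group. The members sum to 58.7 to 75 CPM with endothelin-1 and 247 to 287 CPM with sacubitrilat. The nephron and podocyte list is highest in combined libraries, at 859 to 1134 CPM, where the 1 gene SYNPO makes up 82.7% of it.

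The nephron and podocyte list, 20 genes of which 8 were tested, did not follow NPHS1 and LHX1 as a group. With endothelin-1 against vehicle 2 rose, the Notch ligand JAG1 (1.81 ± 0.30, adjusted p = 2.13e-05, edgeR) and OSR1 (2.42 ± 0.58, adjusted p = 0.00199, edgeR), a zinc-finger factor of kidney mesoderm, and 1 fell, the integrin ITGA8 (-1.57 ± 0.52, adjusted p = 0.0256, edgeR). SYNPO, synaptopodin, an actin-binding protein of podocytes and other cells, made up 41% to 82.7% of the list's summed level and was the list's one gene called in combined against vehicle libraries, at 841 ± 158 and 427 ± 103 CPM (SD, n = 3; log2 difference 0.93 ± 0.20, adjusted p = 0.0329, edgeR). With sacubitrilat against vehicle SYNPO fell by 1.12 ± 0.19 and the podocyte sialomucin PODXL rose by 1.58 ± 0.40 on the log2 scale (adjusted p = 2.95e-05 and 0.00421, edgeR). OSR1 had 0 counts in the combined libraries, against 78, 56 and 52 counts with endothelin-1. In the interaction 2 genes of the list were called higher and 4 lower, and its median was -2.01 against -0.43 over all genes tested. Between endothelin-1 and sacubitrilat libraries 3 were called higher with endothelin-1, SYNPO and JAG1 among them, and 2 lower, ITGA8 among them. The list's median there was 0.13 against -0.01 over all genes tested.

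The retinoic acid pathway around ALDH1A2, 16 genes of which 11 were tested, was led by the carrier protein CRABP2. CRABP2 averaged 394 ± 91.2 CPM in combined, 2968 ± 78.2 CPM with endothelin-1, 2082 ± 143 CPM with sacubitrilat and 705 ± 290 CPM with vehicle libraries (SD, n = 3). It rose against vehicle with endothelin-1 by 2.05 ± 0.27 and with sacubitrilat by 1.43 ± 0.27 on the log2 scale (adjusted p = 3.94e-07 and 0.000161, edgeR). ALDH1A1, which like ALDH1A2 oxidises retinaldehyde, fell by 2.35 ± 0.34 with endothelin-1 and by 2.20 ± 0.34 with sacubitrilat (adjusted p = 2.49e-06 and 7.32e-06, edgeR). RDH10, which makes retinaldehyde from retinol, averaged 42.9 ± 1.15 CPM with endothelin-1 and 92.2 ± 17.4 CPM with sacubitrilat (SD, n = 3), a log2 difference of -1.02 ± 0.15 (adjusted p = 3.77e-06, edgeR). In all, 3 genes rose and 1 fell with endothelin-1 against vehicle, 4 rose and 1 fell with sacubitrilat, 0 were called in combined against vehicle libraries, and the interaction called 1 higher and 6 lower.

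Markers of other cell types changed between the groups as well. In endothelin-1 against sacubitrilat libraries, 6 of 10 cardiomyocyte genes were called higher and 0 lower, 1 of 10 fibroblast genes higher and 2 lower, and 3 of 7 smooth muscle genes higher and 0 lower. Of 8 tested genes in the endoderm and epithelium list, 0 were called higher and 1 lower there, with a median log2 difference of -0.08. The fibroblast collagen COL1A1 had 2701 to 3159 CPM with endothelin-1 and 3555 to 3794 CPM with sacubitrilat. With endothelin-1 against vehicle, 8 cardiomyocyte genes, 5 fibroblast genes and 5 smooth muscle genes rose, and 0, 1 and 0 fell. With sacubitrilat against vehicle, 3 cardiomyocyte genes, 2 fibroblast genes and 2 smooth muscle genes rose, and 1, 0 and 0 fell. None of the 7 endothelial genes was tested, and their summed level was 7.41 to 18.9 CPM over the 12 libraries. The part of these shifts in the members' results was not tested.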

How the data were processed

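RNA was captured by its poly(A) tail with a primer that carries a molecular identifier, and stranded 3′-end libraries were made, per the labels' protocols. The submitters' processing notes name fastp 0.24.0, featureCounts and GRCh38. For the aligner, annotation release, strand setting and use of identifiers the answer is "not given in the sources used here". Genes that overlap a member (WT1-AS, APLP1) or resemble it (UPK3BL1) may share its reads. The authors deposited 1 table with an estimated count per gene, 21.1% of values above 0 not being whole, and the deposited CPM, which equal the count divided by the library total.

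Counts were rounded and fitted for all 12 libraries together in a model of group alone, with edgeR 4.0.16 in R 4.3.3 (quasi-likelihood test, TMM scaling and filterByExpr). The filter kept 11203 genes, all 10 members among them, and p was adjusted over these after Benjamini and Hochberg, with calls at 0.05. An SE is the log2 difference divided by the root of F. Intervals are 95% exact binomial intervals for a ratio of summed counts, and with the floor of 3 counts they cover counting error only. The 92 spike-in features had 0 counts and were left out. The members, the marker lists and the tests were chosen with earlier results of these data known. Named genes are the members, up to 3 called genes per list and comparison by the smallest p, the defining markers of each list and the 3 genes nearest to WT1 by the distance of centred log2(CPM + 1) profiles over the 6 single-compound libraries; not all of them are printed. The 8 lists are cardiomyocyte, fibroblast, smooth muscle, endothelial, endoderm and epithelium, epicardial and mesothelial, nephron and podocyte, and retinoic acid pathway.

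The labels repeat the replicate number under a batch tag, which was taken as a possible pairing of libraries across groups. Deviations of same-numbered libraries from their group means had r of -0.146 to 0.0396 over 18 pairs, 0 of them over 0.1. Alternatives were RLE scaling, no filter, at least 10 counts in 3 libraries, DESeq2 1.42.0, a replicate block, thinning every library to 80000 counts, dropping both libraries that held fewer than 100000, and leaving out each library in turn. The filter was applied anew each time. Promoters came from a RefSeq table (GRCh38.p14) with 14 promoters of the members. Figures were drawn with matplotlib 3.10.9.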

Additional observations from a re-analysis of the deposited data

Results flagged for a closer look

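For 3 members the difference made by endothelin-1 was not the same with and without sacubitrilat, by the interaction term of edgeR's test. The log2 difference of the differences was 4.14 for LHX1, 4.62 for NPHS1 and 4.21 for UPK3B. With sacubitrilat present, the log2 difference made by endothelin-1 was 1.31 for LHX1 (adjusted p = 0.0159), 1.20 for NPHS1 (0.131, not called) and 1.07 for UPK3B (0.297, not called). Without sacubitrilat it was -2.84, -3.42 and -3.14, all called. The same term sets the 6 shallow libraries against the 6 deep ones, and 20.1% of all genes tested were called higher in it. The value for LHX1 stayed between 3.41 and 4.60 and that for NPHS1 between 3.70 and 5.26 over the alternatives, all of them called. UPK3B was not called without combined replicate 1 (2.91, adjusted p = 0.127) and without the 2 libraries under 100000 counts (2.72, adjusted p = 0.152).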

How the results depend on the processing

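Thinning to 80000 counts gave no value because no member passed the filter, and leaving out any 1 endothelin-1 or sacubitrilat library left 6 members tested for the same reason. DESeq2 gave no adjusted p for combined against vehicle. Of the recomputed values of single members, 861 kept their direction and their side of the threshold, 9 gained a call, 27 lost one and 29 changed sign without a call before or after. With each library left out in turn, the members called numbered 1 to 3 for sacubitrilat against vehicle, 1 to 3 for combined against endothelin-1, 2 to 6 for combined against sacubitrilat (2 whenever an endothelin-1 or sacubitrilat library was left out, 3 without combined replicate 2) and 2 to 5 for the interaction (5 without vehicle replicate 1). Members beyond 2-fold between endothelin-1 and sacubitrilat numbered 5 to 9. Calls for endothelin-1 against vehicle numbered 4 to 6 over all alternatives, and none was called for combined against vehicle.

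Without the 2 libraries under 100000 counts, 1 member was called for sacubitrilat against vehicle, and signs turned for WT1 in combined against vehicle (-0.33) and in the interaction (-0.15), ITGB8 in sacubitrilat against vehicle (0.16), TBX18 in combined against endothelin-1 (0.06) and UPK3B in combined against sacubitrilat (-0.13). With no filter they turned for WT1 in combined against vehicle (-0.15) and in the interaction (-0.55), ITGB8 in sacubitrilat against vehicle (0.20) and TCF21 in combined against endothelin-1 (-0.03). With each library left out, values that changed sign ranged in combined against vehicle from -0.30 to 0.76 for WT1 and -0.49 to 0.70 for NPHS1. In endothelin-1 against vehicle they ranged from -1.06 to 0.08 for WT1, -1.10 to 0.25 for TBX18 and -1.14 to 0.18 for ALDH1A2, each above 0 without vehicle replicate 1. In sacubitrilat against vehicle they ranged from -0.58 to 0.01 for AQP3 and -0.16 to 0.19 for ITGB8. In combined against endothelin-1 they ranged from -2.39 to 0.01 for TBX18, -0.66 to 0.74 for TCF21 and -0.45 to 1.14 for AQP3. UPK3B ranged from -0.18 to 1.64 in combined against sacubitrilat, and in the interaction WT1 ranged from -0.98 to 0.42 and AQP3 from -0.11 to 1.61. The cause of these shifts was not tested. The replicate block ended the call of AQP3 in combined against sacubitrilat (-1.73, adjusted p = 0.0642) and changed no other call of a member. Depth limits the combined and vehicle values, which rest on 0 to 20 counts per member and group.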
